A study of Mus musculus with 8 samples.

Results

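The growth hormone (GH) axis of the liver was followed through 10 genes, chosen by name from the 55487 genes of a table of liver RNA from male mice. Of these, 7 are genes of GH signalling (Ghr, Stat5b, Igf1, Igfals, Socs2, Cish and Bcl6) and 3 are liver genes that depend on STAT5 (Hsd3b5, Elovl3 and Selenbp2). All 10 were found under their symbol, and all 10 reached an FPKM (fragments per kilobase of transcript, scaled to the mapped fragments) of at least 1 in at least 2 of the 8 libraries, as 11514 genes of the table did.

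The livers were from wild-type male C57BL/6N mice in 4 groups: western diet + CCl4 (1 library), normal diet + CCl4 (2 libraries), western diet + oil (2 libraries) and normal diet + oil (3 libraries). The western diet was high in fat, with fructose (23.1 g/L) and glucose (18.9 g/L) in the water, while the normal diet was chow with tap water. Weekly intraperitoneal injections held CCl4, a toxin that injures hepatocytes, or corn oil, so the normal diet + oil mice were injected as well. The sources used here do not give the dose of CCl4, the length of treatment, the age of the mice or the hour at which livers were taken. The labels do not say whether libraries of a group came from separate animals, so p-values measure only the spread between these libraries.

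GH binds its receptor on hepatocytes, the kinase JAK2 phosphorylates STAT5B, and STAT5B enters the nucleus and switches genes on. In male mice the pituitary releases GH in pulses, and each pulse activates STAT5B anew, which holds a set of male-biased liver genes high. GH also drives the liver to make IGF1 and its carrier protein, and it induces its own feedback inhibitors of the SOCS family, while the repressor BCL6, which binds DNA motifs much like those of STAT5, falls when STAT5 is active.

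Depth is unknown, since no counts were used, and the smallest nonzero FPKM of a library was 0.252 to 0.318. A gene listed at 0 is therefore not shown to be absent. The hepatocyte markers were high in every library, with a summed level of 48339 FPKM in western diet + CCl4, 57567 to 67331 in normal diet + CCl4, 38587 to 46435 in western diet + oil and 40558 to 49707 in normal diet + oil, and all 4 adipocyte markers were listed at 0 throughout. Normal diet + oil library 3 stood apart from the others: its clock gene Dbp had 0.481 FPKM, against 19.3 to 91.0 FPKM in the remaining 7 libraries. The Mup genes, male-biased secreted proteins, took 16.9%, 22.1% and 32.5% of the summed FPKM in normal diet + oil libraries 1, 2 and 3. Their share was lower in every library of the other groups. It was 8.22% in western diet + CCl4, 2.80% and 4.65% in normal diet + CCl4, and 9.16% and 10.04% in western diet + oil. The Mup share thus separated normal diet + oil as a group, with library 3 the highest. Results that move with normal diet + oil library 3 are given with and without it. The median gene was higher than in normal diet + oil by 0.19 (western diet + CCl4), 0.26 (normal diet + CCl4) and 0.22 (western diet + oil) on the log2(FPKM + 1) scale, and all fold changes below are on that scale, which understates changes of low genes.

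Stretches of RefSeq promoter windows (GRCm38.p6, from 250 bases before to 50 bases after a gene's start) are shown for 3 signalling genes that hold the STAT5 motif TTCNNNGAA there, in capitals, where N is any base. The motif reads the same on both strands and overlaps the motif of BCL6. The Cish stretch (chr9:107296654-107296683, plus strand) spans positions -5 to 25 from the start and lies in a 5′ untranslated exon of GENCODE M21, the Bcl6 stretch (chr16:23981343-23981471, minus strand) spans -188 to -60 from an internal start, and the Igfals stretch (chr17:24878153-24878201, plus strand) spans -78 to -30. The Bcl6 and Igfals stretches are intronic in GENCODE M21.
Cish: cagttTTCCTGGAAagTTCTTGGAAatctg
Bcl6: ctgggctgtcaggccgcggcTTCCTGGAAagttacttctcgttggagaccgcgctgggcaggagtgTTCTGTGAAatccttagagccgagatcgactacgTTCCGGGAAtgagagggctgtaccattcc
Igfals: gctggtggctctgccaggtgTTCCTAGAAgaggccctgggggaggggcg
The Cish and Bcl6 stretches thus hold 2 and 3 matches. Among 32851 promoter windows of 27025 genes, 8.30% held at least 1 match, 0.457% at least 2 and 0.0335% at least 3. Entries were found for 8 of the 10 genes, and Socs2 and Elovl3 had none. Another window of Igfals and another of Bcl6 held 1 match each, and the windows of Ghr, Stat5b, Igf1, Hsd3b5 and Selenbp2 held no match of these letters. The Hsd3b5 window, with its start site at 98645534, lies outside the GENCODE M21 span of that gene (98618634 to 98630252). The start of Hsd3b5 in GENCODE M21 was therefore not searched.

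**Figure D1:**
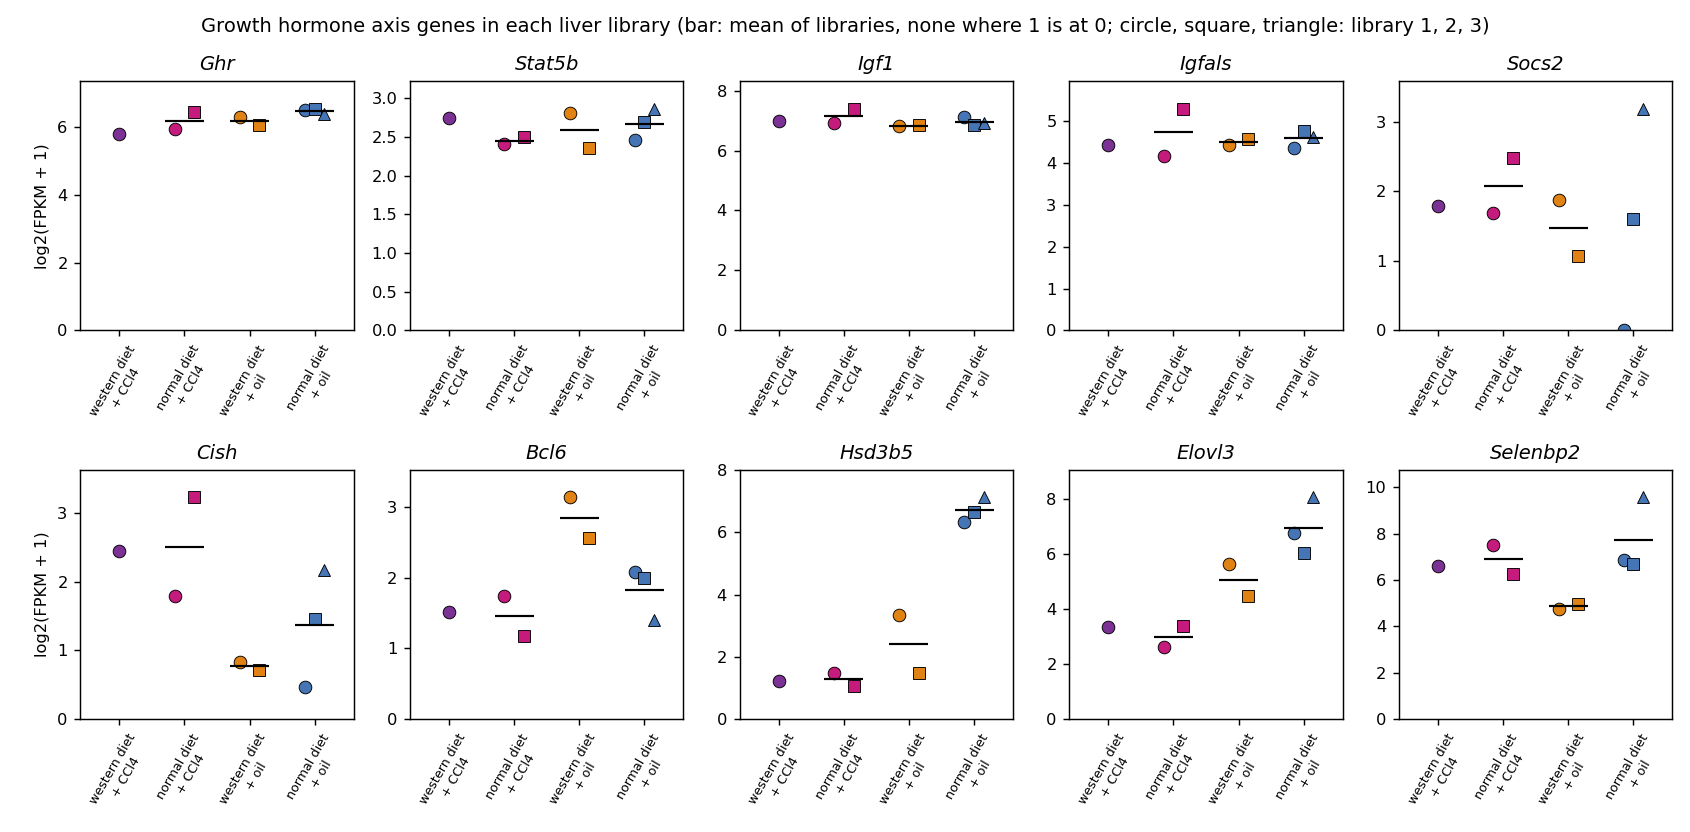
Level of the 10 genes, log2(FPKM + 1), in each of the 8 libraries by group, with 1 point per library and a bar at the mean of a group's libraries (none where 1 of them is at 0). The receptor, Stat5b, Igf1 and Igfals lie within a narrow band in all groups, while Hsd3b5 lies between 1.08 and 9.05 FPKM in the 5 libraries with a western diet or CCl4 and between 80.2 and 138 FPKM in the 3 normal diet + oil libraries.

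On deposited FPKM, the receptor and transducer of the GH signal and its main endocrine output varied little between groups. Across all 8 libraries the highest value was 1.68 times the lowest for Ghr, 1.52 times for Stat5b, 1.51 times for Igf1 and 2.26 times for Igfals. None of the 4 passed the test in any comparison. In whole-liver RNA, fewer cells of a type and less RNA per cell cannot be told apart.

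Ghr, which encodes the GH receptor (ENSMUSG00000055737, chromosome 15, 3317760 to 3583492, minus strand, GRCm38), had 54.5 FPKM in western diet + CCl4 and 60.3 and 85.4 in normal diet + CCl4. It had 78.0 and 65.7 in western diet + oil, against 89.9, 91.8 and 83.1 in normal diet + oil. The western diet + CCl4 library was the lowest of the 8, and both western diet + oil libraries lay under all 3 normal diet + oil libraries. On deposited FPKM the normal diet + CCl4 libraries overlapped normal diet + oil. The difference from normal diet + oil was -0.68 ± 0.26 (SE) in western diet + CCl4 (limma, adjusted p = 0.264), -0.29 ± 0.20 in normal diet + CCl4 (adjusted p = 0.379) and -0.30 ± 0.20 in western diet + oil (adjusted p = 0.423). For western diet + CCl4 the unadjusted p was 0.0297 and the 95% interval ran from -1.28 to -0.09.

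Stat5b, the main STAT5 isoform of liver (ENSMUSG00000020919, chromosome 11, 100780731 to 100850724, minus strand), had 5.70 FPKM in western diet + CCl4 and 4.31 and 4.65 in normal diet + CCl4. It had 6.02 and 4.13 in western diet + oil, against 4.49, 5.44 and 6.28 in normal diet + oil. Every group overlapped normal diet + oil. The 95% intervals of the difference from normal diet + oil were -0.49 to 0.64 for western diet + CCl4, -0.66 to 0.23 for normal diet + CCl4 and -0.53 to 0.36 for western diet + oil. STAT5B acts through phosphorylation, which RNA does not measure.

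Igf1, the hormone that carries much of the growth effect of GH into the blood (ENSMUSG00000020053, chromosome 10, 87858265 to 87937042, plus strand), was the most abundant of the 7 signalling genes, with 125 FPKM in western diet + CCl4 and 119 and 167 in normal diet + CCl4. It had 111 and 114 in western diet + oil, against 138, 115 and 120 in normal diet + oil. The western diet + oil libraries lay just under the normal diet + oil libraries, and the CCl4 libraries were within or above them. The difference from normal diet + oil was 0.01 (95% interval -0.59 to 0.61) in western diet + CCl4, 0.19 (-0.29 to 0.66) in normal diet + CCl4 and -0.14 (-0.61 to 0.34) in western diet + oil.

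Igfals, the acid-labile subunit that keeps IGF1 in a long-lived complex in blood (ENSMUSG00000046070, chromosome 17, 24865997 to 24882010, plus strand), had 20.6 FPKM in western diet + CCl4 and 16.9 and 38.3 in normal diet + CCl4. It had 20.5 and 22.7 in western diet + oil, against 19.6, 26.4 and 23.7 in normal diet + oil. All groups overlapped normal diet + oil, and the normal diet + CCl4 libraries were the lowest and the highest of the 8. The differences from normal diet + oil lay between -0.16 and 0.14 (adjusted p of 0.778 to 0.884). Scaling moved the sign of several of these small differences, so no direction is given for Stat5b, Igf1 or Igfals.

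The feedback genes and Bcl6 varied more from library to library. Socs2, a feedback inhibitor of GH signalling (ENSMUSG00000020027, chromosome 10, 95385362 to 95417180, minus strand), had 2.46 FPKM in western diet + CCl4 and 2.21 and 4.56 in normal diet + CCl4. It had 2.67 and 1.10 in western diet + oil, against 0, 2.03 and 8.09 in normal diet + oil. The 3 normal diet + oil libraries held both the lowest and the highest of the 8 values, so every other group fell within them. The differences ranged from -0.12 ± 0.79 in western diet + oil to 0.48 ± 0.79 in normal diet + CCl4, and none passed. Without normal diet + oil library 3 they were 0.99 in western diet + CCl4, 1.28 in normal diet + CCl4 and 0.67 in western diet + oil, and none passed.

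Cish, which encodes a SOCS-family inhibitor induced by STAT5 (ENSMUSG00000032578, chromosome 9, 107296026 to 107302784, plus strand), had 4.44 FPKM in western diet + CCl4 and 2.48 and 8.38 in normal diet + CCl4. It had 0.783 and 0.635 in western diet + oil, against 0.385, 1.74 and 3.53 in normal diet + oil. Both western diet + oil libraries were below every CCl4 library, and the normal diet + oil libraries ran from the lowest of the 8 to among the higher ones. Against normal diet + oil the difference was 1.08 ± 0.67 in western diet + CCl4 (adjusted p = 0.491), 1.15 ± 0.53 in normal diet + CCl4 (adjusted p = 0.238) and -0.60 ± 0.53 in western diet + oil (adjusted p = 0.530). Without normal diet + oil library 3 these differences were 1.48, 1.55 and -0.19 in the same order, and none passed. The lowest Cish values are close to the lowest values listed in a library.

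Bcl6, a transcriptional repressor that holds down female-biased genes in male liver (ENSMUSG00000022508, chromosome 16, 23965052 to 23988852, minus strand), had 1.87 FPKM in western diet + CCl4 and 2.35 and 1.26 in normal diet + CCl4. It had 7.81 and 4.93 in western diet + oil, against 3.26, 3.00 and 1.65 in normal diet + oil. Both western diet + oil libraries were above all of the other 6, and the CCl4 libraries overlapped normal diet + oil. The difference from normal diet + oil was -0.31 ± 0.36 in western diet + CCl4 (adjusted p = 0.732), -0.37 ± 0.28 in normal diet + CCl4 (adjusted p = 0.415) and 1.02 ± 0.28 in western diet + oil (unadjusted p = 0.00705, adjusted p = 0.0814), so none passed the test. Without normal diet + oil library 3 the western diet + oil difference was 0.81 (adjusted p = 0.185). Bcl6 is also expressed in lymphocytes: the summed level of 5 B and T cell markers was 2.22 FPKM in western diet + CCl4, 1.72 and 3.78 in normal diet + CCl4, 2.72 and 3.89 in western diet + oil and 0.372 to 1.57 in normal diet + oil, with Ms4a1 at 0 in all 8 libraries, and its part in the Bcl6 values was not tested.

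In both western diet + oil libraries Bcl6 was above, and Cish below, every CCl4 library, while normal diet + oil library 1 had the lowest Cish of all. Socs2, the other feedback inhibitor, did not separate the groups in this way, and none of the 3 genes passed the test. Within normal diet + oil, library 1 had the lowest Cish and Socs2 and the highest Bcl6, and library 3 the highest Cish and Socs2 and the lowest Bcl6.

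**Figure D2:**
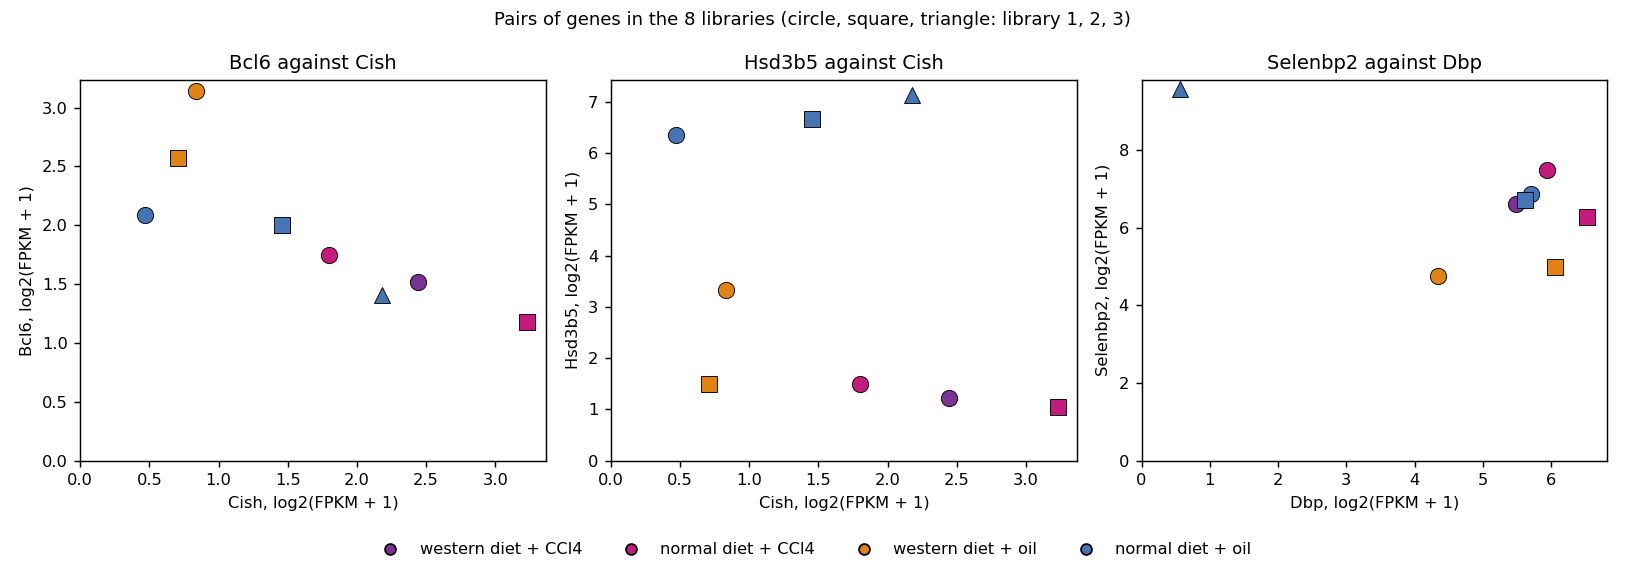
Values of gene pairs in the 8 libraries on the log2(FPKM + 1) scale, with 1 point per library and colour by group: Bcl6 against Cish, Hsd3b5 against Cish, and Selenbp2 against the clock gene Dbp. The western diet + oil libraries combine low Cish with the highest Bcl6, the CCl4 libraries combine Cish of 2.48 to 8.38 FPKM with Hsd3b5 under 2 FPKM, and normal diet + oil library 3 has the highest Selenbp2 with the lowest Dbp.

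Among the 3 target genes, Hsd3b5 fell in all 3 comparisons with normal diet + oil and Elovl3 in 1, and Selenbp2 passed in none. Hsd3b5, a hepatic 3-ketosteroid reductase made almost only in males (ENSMUSG00000038092, chromosome 3, 98618634 to 98630252, minus strand), had 1.32 FPKM in western diet + CCl4 and 1.81 and 1.08 in normal diet + CCl4. It had 9.05 and 1.81 in western diet + oil, against 80.2, 100 and 138 in normal diet + oil. No library of the other groups came near normal diet + oil, and the CCl4 libraries were as low as the lower of the 2 western diet + oil libraries. It fell by 5.49 ± 0.62 in western diet + CCl4 (limma, adjusted p = 0.00914), by 5.44 ± 0.49 in normal diet + CCl4 (adjusted p = 0.00425) and by 4.30 ± 0.49 in western diet + oil (adjusted p = 0.0125), in every library of each group.

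These calls rested on few libraries. Without western diet + oil library 2 the Hsd3b5 difference in western diet + oil was -3.38 (adjusted p = 0.0779), and without normal diet + CCl4 library 1 that in normal diet + CCl4 was -5.66 (adjusted p = 0.0526). Without the filter on low values the normal diet + CCl4 call was lost as well (adjusted p = 0.0584). Without normal diet + oil library 3 they were -5.29 in western diet + CCl4, -5.23 in normal diet + CCl4 and -4.09 in western diet + oil, all past the threshold. Hsd3b4, whose coding sequence is 95.2% identical to that of Hsd3b5, was listed at 0 in all libraries of the other groups and at 0.435, 0.690 and 1.10 FPKM in normal diet + oil, and fragments of such a pair cannot be assigned with certainty.

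Elovl3, an elongase of very long chain fatty acids that is higher in male liver and follows the clock (ENSMUSG00000038754, chromosome 19, 46131897 to 46135694, plus strand), had 9.18 FPKM in western diet + CCl4 and 5.13 and 9.43 in normal diet + CCl4. It had 48.7 and 21.2 in western diet + oil, against 109, 63.9 and 265 in normal diet + oil. The CCl4 libraries of both diets were lowest and overlapped, western diet + oil lay between, and normal diet + oil was highest. It fell by 3.95 ± 0.59 in normal diet + CCl4 (limma, adjusted p = 0.0259). The differences of -3.60 ± 0.74 in western diet + CCl4 (adjusted p = 0.0812) and -1.89 ± 0.59 in western diet + oil (adjusted p = 0.108) did not pass. With 1 library left out, these differences ran from -4.07 to -3.05 in western diet + CCl4 and from -2.47 to -1.32 in western diet + oil. The call was lost without the filter (adjusted p = 0.0949), without normal diet + CCl4 library 1 (-3.57, adjusted p = 0.199), without western diet + oil library 1 (adjusted p = 0.0643) or 2 (adjusted p = 0.0638) and without normal diet + oil library 1 (adjusted p = 0.0632), and it held without normal diet + oil library 3 (-3.40, adjusted p = 0.0284).

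Selenbp2, a selenium-binding protein of male-biased expression (ENSMUSG00000068877, chromosome 3, 94693556 to 94704413, plus strand), had 96.3 FPKM in western diet + CCl4 and 180 and 77.0 in normal diet + CCl4. It had 26.0 and 30.7 in western diet + oil, against 116, 103 and 759 in normal diet + oil. It was lowest in western diet + oil, whose libraries lay under all of the other 6, and the normal diet + CCl4 libraries overlapped normal diet + oil. The difference was -1.11 ± 1.02 in western diet + CCl4 (adjusted p = 0.653), -0.82 ± 0.81 in normal diet + CCl4 (adjusted p = 0.517) and -2.84 ± 0.81 in western diet + oil (unadjusted p = 0.00786, adjusted p = 0.0859). Its order of groups therefore differed from that of Hsd3b5 and Elovl3, in which the CCl4 livers were the lowest.

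The Selenbp2 differences leaned on normal diet + oil library 3, which alone had 759 FPKM. Without that library they were -0.18 in western diet + CCl4, 0.11 in normal diet + CCl4 and -1.92 in western diet + oil (adjusted p = 0.0678). Selenbp1, whose coding sequence is 98.7% identical over 1416 bases, had 131 FPKM in western diet + CCl4 and 177 and 193 in normal diet + CCl4. It had 124 and 138 in western diet + oil, against 146, 132 and 158 in normal diet + oil. Selenbp1 thus varied little where Selenbp2 varied widely, though how fragments were split between the pair is not known. In library 3 the clock genes Arntl (4.31 FPKM) and Dbp (0.481 FPKM) also lay outside the range of the other 7 libraries, and the part of the hour of sampling in Selenbp2 and Elovl3 was not tested.

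**Figure D3:**
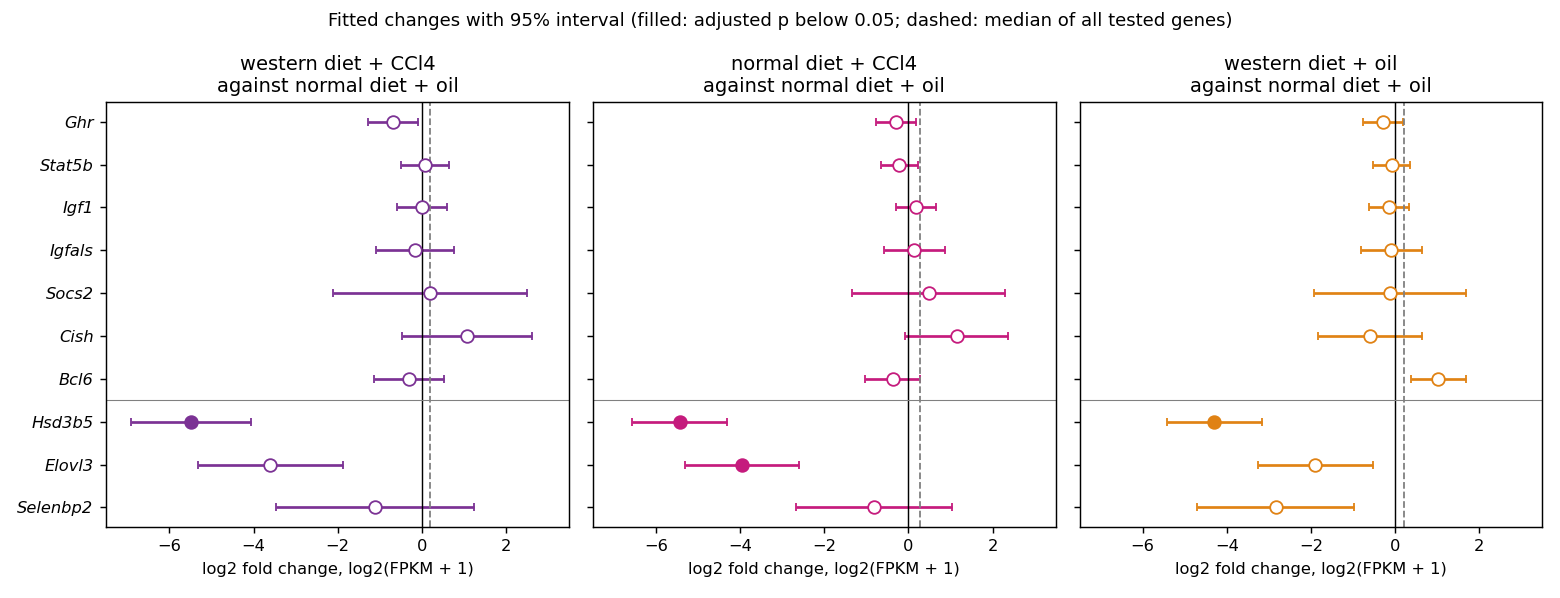
Difference from normal diet + oil of each of the 10 genes, log2(FPKM + 1) with 95% intervals, in western diet + CCl4, normal diet + CCl4 and western diet + oil. Filled points passed an adjusted p of 0.05 and the dashed line is the median of all 11514 genes: of the 7 signalling genes 5, 5 and 6 lie below it in the 3 panels, and all 9 points of the 3 target genes lie below it.

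The median of the targets lay below that of the signalling genes in all 3 comparisons with normal diet + oil. In western diet + CCl4, 1 of the 10 genes fell (Hsd3b5) and none rose. Of all genes 0.929% changed, with 0.261% lower and 0.669% higher. The median difference was -3.60 over the 3 targets and 0.01 over the 7 signalling genes, against 0.19 over all genes. In normal diet + CCl4, 2 of the 10 fell (Hsd3b5 and Elovl3) and none rose. Of all genes 1.42% changed, with 0.4% lower and 1.02% higher. The medians were -3.95 over the targets, 0.14 over the signalling genes and 0.26 over all genes. In western diet + oil, 1 of the 10 fell (Hsd3b5) and none rose. Of all genes 4.41% changed, with 0.599% lower and 3.81% higher. The medians were -2.84, -0.12 and 0.22 in the same order.

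None of the 7 signalling genes passed limma's adjusted p of 0.05 in any of these 3 comparisons. At an unadjusted p under 0.05 there was 1 in western diet + CCl4 (Ghr, lower), 0 in normal diet + CCl4 and 1 in western diet + oil (Bcl6, higher), where 1758, 2621 and 2681 of the 11514 genes did so. Of the 10 genes, those whose libraries lay wholly below normal diet + oil numbered 4 in western diet + CCl4 (13.4% of all genes), 2 in normal diet + CCl4 (3.8%) and 5 in western diet + oil (5.18%). Those wholly above numbered 1 (51.5% of all genes), 0 (41.8%) and 1 (40.7%). The 3 comparisons share the normal diet + oil libraries, so a low or high value there moves all of them.

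The effect of CCl4 in mice on the western diet, and of the diet in mice given CCl4, was compared with the single western diet + CCl4 library, which was assumed to vary like the others. Against western diet + oil, none of the 10 genes passed limma's test, as 0.0434% of all genes did. The 2 that had an unadjusted p under 0.05 were Bcl6 with -1.33 ± 0.38 (limma, adjusted p = 0.728) and Cish with 1.67 ± 0.71 (adjusted p = 1). Bcl6 had 1.87 FPKM in western diet + CCl4, against 7.81 and 4.93 in western diet + oil, and Cish had 4.44 FPKM, against 0.783 and 0.635. The targets differed by -1.19 ± 0.66 (Hsd3b5), -1.71 ± 0.79 (Elovl3) and 1.73 ± 1.08 (Selenbp2), with an adjusted p of 1 for each. In this pair, then, Selenbp2 was higher with CCl4 while Hsd3b5 and Elovl3 were lower.

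Against normal diet + CCl4 the western diet + CCl4 library differed little: the differences of the 10 genes ran from -0.39 for Ghr to 0.35 for Elovl3. None passed limma's test and 0 had an unadjusted p under 0.05, where 0.261% of all genes passed. In the interaction of diet and CCl4, which asks whether the 2 together differ from the sum of each alone, none of the 10 genes passed, as 0.0608% of all genes did. The estimate for Hsd3b5 was 4.24 ± 0.82 (limma, adjusted p = 0.189), the 1 member with an unadjusted p under 0.05. It had 1.32 FPKM under both treatments, 1.08 and 1.81 under CCl4 alone and 1.81 and 9.05 under the diet alone. The sum of the single effects would put it at -3.03 on the log2(FPKM + 1) scale, which cannot go below 0, so an estimate of at least 3.03 was fixed by the scale and is no evidence of an interaction. The estimates for Selenbp2 (2.56 ± 1.35, adjusted p = 0.536) and Elovl3 (2.24 ± 0.98, adjusted p = 0.510) had the same sign. With 1 library left out they ran from 1.63 to 3.16 for Selenbp2 and from 1.66 to 2.82 for Elovl3.

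Other genes around the axis were counted by list. Of 16 male-biased genes dependent on pulsatile GH, 3 fell in western diet + CCl4, 4 in normal diet + CCl4 and 7 in western diet + oil. Of all genes 0.261%, 0.4% and 0.599% fell in the same order. None of the 16 rose, and their medians were -1.23, -1.16 and -1.03. Not all went down: the estimates of 2, 3 and 1 of them were above 0. Slco1a1, an organic anion transporter, had 7.19 FPKM in western diet + CCl4 and 4.22 and 5.65 in normal diet + CCl4. It had 21.2 and 14.4 in western diet + oil, against 59.6, 50.1 and 67.9 in normal diet + oil. It fell by 2.87 ± 0.29 in western diet + CCl4 (adjusted p = 0.00696), by 3.34 ± 0.23 in normal diet + CCl4 (adjusted p = 0.00205) and by 1.69 ± 0.23 in western diet + oil (adjusted p = 0.0152). Like Elovl3, it was lowest with CCl4 and intermediate with the western diet alone, without overlap between these.

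Cyp7b1, an oxysterol hydroxylase, was alike in the treated groups, with 27.5 FPKM in western diet + CCl4 and 25.9 and 19.7 in normal diet + CCl4. It had 22.5 and 22.7 in western diet + oil, against 113, 89.1 and 172 in normal diet + oil. It fell by 2.09 ± 0.35 in western diet + CCl4 (adjusted p = 0.0484), by 2.36 ± 0.28 in normal diet + CCl4 (adjusted p = 0.0123) and by 2.36 ± 0.28 in western diet + oil (adjusted p = 0.0137). Susd4, a complement inhibitor, fell in all 3 comparisons as well. The falls were 2.83 in western diet + CCl4, 2.00 in normal diet + CCl4 and 2.16 in western diet + oil. It had 0.500 FPKM in western diet + CCl4. Its means were 1.78 FPKM in normal diet + CCl4, 1.52 in western diet + oil and 9.85 in normal diet + oil. The lowest Susd4 values are close to the lowest values listed in a library. Serpina1e, a serine protease inhibitor, fell by 2.92 ± 0.28 in western diet + oil (adjusted p = 0.00713), and Nudt7, a peroxisomal coenzyme A hydrolase, by 1.23 ± 0.20 in normal diet + CCl4 (adjusted p = 0.0327).

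The number of male-biased genes called depended on single libraries and on settings. Without the filter it was 1 in western diet + CCl4, 1 in normal diet + CCl4 and 2 in western diet + oil. In western diet + CCl4 it was 1 with a pseudocount of 0.1 and 2 at a mean FPKM of at least 5, under median-of-ratios scaling or with the Mup genes removed. For western diet + CCl4 the count of 3 became 5 without normal diet + CCl4 library 1 or 2, 2 without normal diet + oil library 3 and 1 without any other normal diet + oil or western diet + oil library. For normal diet + CCl4 the count of 4 became 1 without normal diet + CCl4 library 1 or either western diet + oil library, 5 without normal diet + CCl4 library 2, and 3, 2 and 2 without normal diet + oil library 1, 2 and 3. For western diet + oil the count of 7 became 0 without either of its own libraries, 3 without normal diet + oil library 1 or 2, 4 without library 3, and 8 without either normal diet + CCl4 library.

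Female-biased genes are favoured by continuous GH and restrained by BCL6 in males. Of 21 listed, 11 were tested. Of these, 1 rose in western diet + CCl4, 2 in normal diet + CCl4 and 2 in western diet + oil, and none fell. The medians were 0.00, 0.99 and 0.00. Of all genes 0.669%, 1.02% and 3.81% rose in the same order. In normal diet + CCl4, 7 of the 11 had an unadjusted limma p under 0.05 in either direction, as 2621 of all 11514 genes did. Of the 11, 6 had both libraries above normal diet + oil (41.8% of all genes) and 1 had both below (3.8%). Cyp3a16, a cytochrome P450 with near-identical neighbours in its family, was listed at 0 in western diet + CCl4, had 3.13 and 7.32 FPKM in normal diet + CCl4 and was listed at 0 in both western diet + oil and all 3 normal diet + oil libraries. It is counted among the risers in normal diet + CCl4 (limma, adjusted p = 0.00954). It entered the test only through the libraries of that group, so its call gives no separate support. Acot3, a peroxisomal thioesterase, rose there as well (2.11 ± 0.37, adjusted p = 0.0417). In western diet + oil the risers were Cyp17a1, a steroid hydroxylase (1.84 ± 0.30, adjusted p = 0.0249), and Cyp2b9, a cytochrome P450 (2.22 ± 0.44, adjusted p = 0.0369), and in western diet + CCl4 Cyp17a1 (2.73 ± 0.38, adjusted p = 0.0265).

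Single libraries and settings moved these counts too. With a pseudocount of 0.1 they were 0 in western diet + CCl4, 0 in normal diet + CCl4 and 1 in western diet + oil, and without the filter 2, 0 and 1. At a mean FPKM of at least 5 and under median-of-ratios scaling they were 0 and 1 in normal diet + CCl4 and 1 and 1 in western diet + oil. With a common FPKM sum they were 2, 4 and 2, and with the Mup genes removed 1, 1 and 2. For western diet + CCl4 the count of 1 became 4 without normal diet + CCl4 library 1 or 2 and 0 without western diet + oil library 1 or 2 or normal diet + oil library 1. For normal diet + CCl4 the count of 2 became 3 without its own library 1, 4 without its own library 2, and 1 without western diet + oil library 1 or 2 or normal diet + oil library 1 or 3. For western diet + oil the count of 2 became 0 without either of its own libraries or normal diet + oil library 1, 1 without normal diet + oil library 2 or 3, and 3 without either normal diet + CCl4 library.

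Upstream of STAT5, 16 of 19 partners and inhibitors of the receptor were tested, and 1 of them changed in 1 comparison. That comparison was western diet + oil, where 4.41% of all genes changed. Ptpn6, the phosphatase SHP-1 that dampens JAK2, had 12.1 FPKM in western diet + CCl4 and 10.6 and 6.41 in normal diet + CCl4. It had 13.8 and 13.1 in western diet + oil, against 5.01, 5.80 and 5.53 in normal diet + oil. Every library of the other groups was above normal diet + oil. Of all genes 51.5% (western diet + CCl4), 41.8% (normal diet + CCl4) and 40.7% (western diet + oil) lay wholly above it. Ptpn6 rose by 1.16 ± 0.21 in western diet + oil (limma, adjusted p = 0.0275). That call was lost without any 1 of the western diet + oil or normal diet + oil libraries, without the filter and with the Mup genes removed, and the list had 2 with a common FPKM sum or without normal diet + CCl4 library 1 or 2. Ptpn6 is abundant in leukocytes: 7 of 9 Kupffer cell and macrophage markers rose in western diet + oil and 0 in the other comparisons, and their summed level was 187 FPKM in western diet + CCl4, 184 and 66.5 in normal diet + CCl4, 280 and 514 in western diet + oil and 33.3 to 72.0 in normal diet + oil. Trem2 was listed at 0 in normal diet + CCl4 library 2 and in all 3 normal diet + oil libraries. Their part in the Ptpn6 result was not tested.

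Socs3, a SOCS inhibitor induced by inflammatory cytokines, had 7.35 FPKM in western diet + CCl4 and 2.98 and 3.34 in normal diet + CCl4. It had 2.97 and 7.76 in western diet + oil, against 1.75, 2.67 and 1.27 in normal diet + oil. It was above normal diet + oil in all 5 other libraries, where 40.7% to 51.5% of all genes lay wholly above in single comparisons. It passed in none of the comparisons, with 1.56 ± 0.42 in western diet + CCl4 (limma, adjusted p = 0.148). Of 11 tested acute phase genes none passed in any of the 3 comparisons, although their summed level was 44452 FPKM in western diet + CCl4, against 3462 to 17078 FPKM in the other 7 libraries. Tnf and Il6 were listed at 0 in all 8. In the same library 4 neutrophil markers summed to 417 FPKM, against 1.77 to 37.5 FPKM elsewhere, and all 3 that were tested rose. The part of these markers in the values of the GH genes was not tested.

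Of the IGF system, 8 of 12 genes were tested, and Igf2 and Igf1r were listed at 0 in every library. In western diet + oil 2 of the 8 rose, as 3.81% of all genes did. Igfbp3, the binding protein of the complex that Igfals stabilises, rose by 1.32 ± 0.26 (limma, adjusted p = 0.0365). Igfbp7, a binding protein of low IGF affinity, rose by 1.55 ± 0.31 (adjusted p = 0.0365). None passed in western diet + CCl4 or normal diet + CCl4, where Igfbp3 in the second stood at 1.31 (adjusted p = 0.0590). The count of 2 became 0 without any 1 of the western diet + oil or normal diet + oil libraries and 3 without normal diet + CCl4 library 1 or 2, and it was 0 without the filter, under median-of-ratios scaling and with the Mup genes removed and 1 at a mean FPKM of at least 5. With a common FPKM sum 2 of the list passed in normal diet + CCl4. Both are also made by non-parenchymal cells, and 3 of 5 sinusoidal endothelial markers and 2 of 7 stellate cell markers rose in western diet + oil. The endothelial markers summed to 27.9 FPKM in western diet + CCl4, 35.2 and 60.4 in normal diet + CCl4, 50.2 and 50.3 in western diet + oil and 19.5 to 30.8 in normal diet + oil, and their part in the result was not tested.

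Igfbp1, which insulin represses, had 56.9 FPKM in western diet + CCl4 and 35.7 and 8.96 in normal diet + CCl4. It had 153 and 170 in western diet + oil, against 104, 19.5 and 37.7 in normal diet + oil. It was highest in western diet + oil without passing there (1.89 ± 0.71, adjusted p = 0.166). Of 8 tested transcription factors of the sex-dependent GH response, none passed in the 3 comparisons, with medians of 0.07, 0.39 and -0.14 in western diet + CCl4, normal diet + CCl4 and western diet + oil. In western diet + CCl4 1 was lower under median-of-ratios scaling, and in normal diet + CCl4 1 was higher with a common FPKM sum. Of 9 tested Hsd3b, Elovl and Selenbp paralogs and 13 tested clock genes none passed either.

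Some lipid genes are held down by the hepatic GH receptor, JAK2 and STAT5. Of 5 tested, 1 rose in western diet + CCl4, 0 in normal diet + CCl4 and 3 in western diet + oil. The medians were 2.42, 0.58 and 2.67. Of all genes 0.669%, 1.02% and 3.81% rose in the same order. Cidec, a lipid droplet protein, rose by 2.91 ± 0.51 in western diet + CCl4 (adjusted p = 0.0488) and by 4.66 ± 0.40 in western diet + oil (adjusted p = 0.00342). In western diet + oil Lpl, lipoprotein lipase, rose by 2.81 ± 0.46 (adjusted p = 0.0246) and the fatty acid transporter Cd36 by 2.67 ± 0.49 (adjusted p = 0.0294). The count in western diet + CCl4 was 0 without any 1 of the western diet + oil or normal diet + oil libraries and 2 without normal diet + CCl4 library 1 or 2, and that in western diet + oil was 0 without either of its own libraries and 1 without any 1 of the normal diet + oil libraries. The count in western diet + CCl4 was also 0 with a pseudocount of 0.1, without the filter, at a mean FPKM of at least 5, under median-of-ratios scaling and with the Mup genes removed, and with a common FPKM sum it was 2, with 5 in western diet + oil. In western diet + oil it was 2 without the filter. In normal diet + CCl4, Lpl stood at 1.66 (adjusted p = 0.122), Cd36 at 1.63 (adjusted p = 0.133) and the lowest of the 5, Pparg, at -0.38. Lpl and Cd36 are also made by macrophages, whose markers rose in western diet + oil (7 of 9, median 2.43, with the summed levels given beside Ptpn6), and their part in the lipid gene result was not tested.

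**Figure D4:**
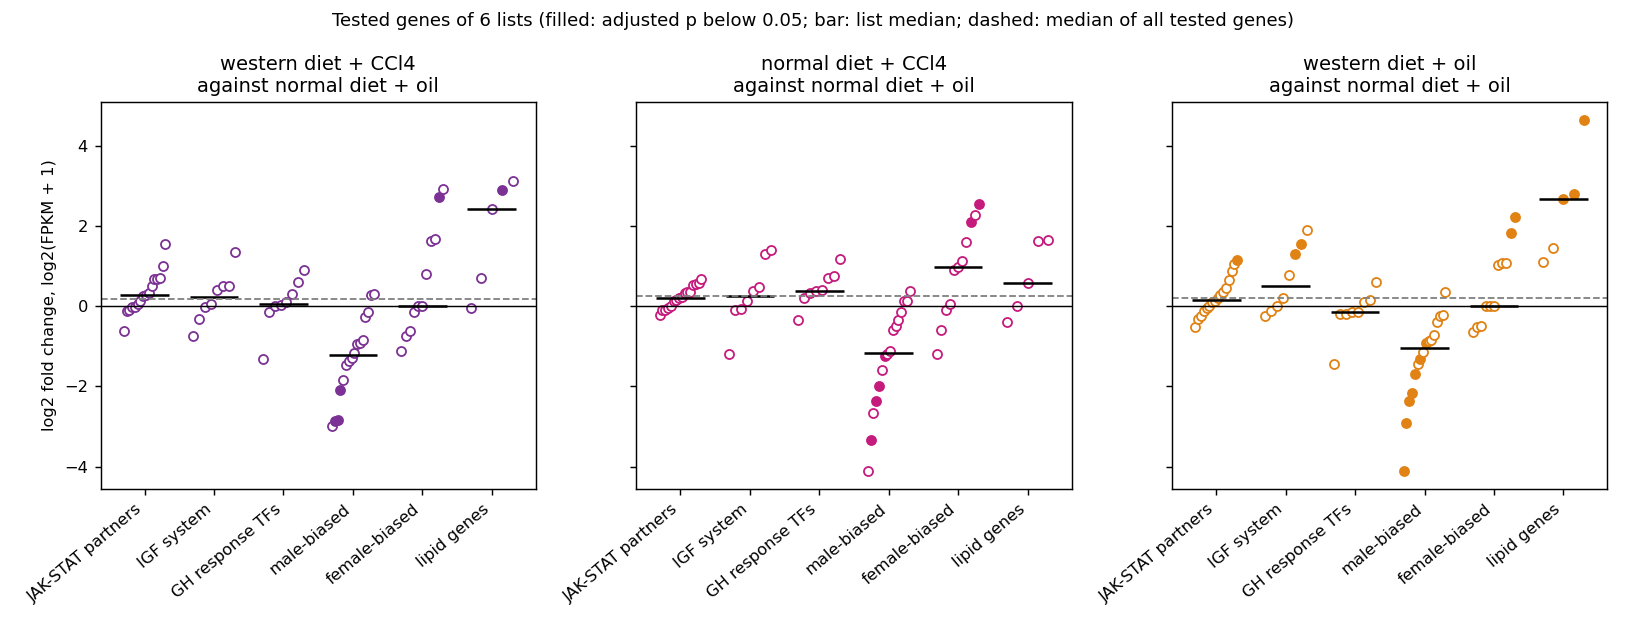
Difference from normal diet + oil of every tested gene of 6 lists, log2(FPKM + 1), in western diet + CCl4, normal diet + CCl4 and western diet + oil. The male-biased genes have medians of -1.23, -1.16 and -1.03, while the lists of partners of the receptor, the IGF system and transcription factors have medians between -0.14 and 0.50.

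The genes most like 3 of the members were found from the root mean square difference of log2(FPKM + 1) over the 8 libraries, after centring each gene. For Ghr they were Paox, Nox4 and Mblac2, at 0.0843, 0.0869 and 0.0870. For Socs2 they were Cpeb4, AI480526 and Hyou1, at 0.368, 0.416 and 0.458. For Hsd3b5 they were Mup7, Elovl3 and Mup13, at 1.06, 1.12 and 1.22. Mup7 had 2719 FPKM in western diet + CCl4 and 546 and 1108 in normal diet + CCl4. It had 2094 and 1529 in western diet + oil, against 10740, 14417 and 25924 in normal diet + oil. Mup genes are near-identical copies, so single Mup values are uncertain, and all 8 libraries share the normalization of the same table.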

How the data were processed

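RNA-seq of mouse liver was deposited as FPKM, normalized by the authors to transcript length and mapped fragments, for 55487 genes in 8 libraries. NucleoZol RNA and TruSeq Stranded mRNA libraries are named per the labels' protocols. Per the submitters' processing notes, the tools were HISAT2 2.2.1, StringTie 2.1.0, cutadapt 3.7 and FastQC 0.11.9 on GRCm38, and the step each performed is not stated there. FPKM values did not resolve into whole reads, so no count test was possible and no counting interval is given. No pair of libraries shared identical values above 0.

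Genes that reached an FPKM of 1 in 2 or more libraries entered the test on log2(FPKM + 1) with limma 3.58.1 (R 4.3.3; trended eBayes), in 1 fit of 4 group means with 4 residual and 3.93 prior degrees of freedom. There were 6 contrasts. Tests were two-sided and p-values Benjamini-Hochberg adjusted over all 11514 genes, and a gene rose or fell where the adjusted p was below 0.05. The script was tested on simulated data. From each list, up to 4 tested genes with the smallest p per comparison could be named, besides all 10 members, and Hsd3b4, Selenbp1, Dbp, Arntl and Pparg are given outside that rule, chosen after their values were seen. The members and lists (male-biased, female-biased, receptor partners, IGF system, transcription factors, lipid, paralog, clock and acute phase genes, and cell type markers) were chosen with earlier results of these data known. Coordinates are from GENCODE M21 and promoter windows from RefSeq. Alternatives were another pseudocount, other filters, other scalings, the Mup genes removed, a replicate block and each library left out.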

Additional observations from a re-analysis of the deposited data

How the results depend on the processing

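The main log2 fold changes that passed, Hsd3b5 in all 3 comparisons with normal diet + oil and Elovl3 in normal diet + CCl4, kept their sign under every alternative run. Hsd3b5 stayed past the threshold in 13 of 14 alternatives in western diet + CCl4 (-6.19 to -5.29), 13 of 15 in normal diet + CCl4 (-6.11 to -5.22) and 14 of 15 in western diet + oil (-5.22 to -3.38), and Elovl3 in 10 of 15 in normal diet + CCl4 (-4.42 to -3.40). Without the filter, 0 members passed in normal diet + CCl4 (adjusted p = 0.0584 for Hsd3b5 and 0.0949 for Elovl3). Leaving out 1 library gave 1 to 1 members called in western diet + CCl4, 0 to 2 in normal diet + CCl4 and 0 to 1 in western diet + oil. Without western diet + CCl4 library 1 its comparisons have no value, and a mean FPKM of at least 5 left out Socs2, Cish and Bcl6.

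Counts over all genes moved far more. In western diet + CCl4 against normal diet + oil (107 genes) they were 43 with a pseudocount of 0.1, 171 without the filter, 42 at a mean FPKM of at least 5 and 35 to 483 with 1 library left out. In normal diet + CCl4 (164 genes, 118 higher and 46 lower) they were 18 without the filter, 100 under median-of-ratios scaling (44 higher, 56 lower), 412 with a common FPKM sum, 100 with the Mup genes removed and 19 to 1171 with 1 library left out. In western diet + oil (508 genes, 439 higher and 69 lower) they were 121 without the filter, 190 at a mean of at least 5, 285 under median-of-ratios scaling, 801 with a common sum, 310 with the Mup genes removed and 4 to 1148 with 1 library left out. Against western diet + oil (5 genes) they were 0, 69, 0, 11 and 12 with the pseudocount, no filter, mean, common sum and Mup removal, and 3 to 17 with 1 left out. Against normal diet + CCl4 (30 genes) they were 15 with the pseudocount, 109 without the filter and 11 to 34 with 1 left out. For the interaction (7 genes) they were 3, 17, 3, 0, 13 and 2 with the pseudocount, no filter, mean, median of ratios, common sum and Mup removal, and 0 to 157 with 1 left out. The cause of these shifts was not tested.

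With the replicate number as a block the counts over all genes were 6 in western diet + CCl4, 49 in normal diet + CCl4 and 32 in western diet + oil against normal diet + oil, 0 against western diet + oil, 11 against normal diet + CCl4 and 2 in the interaction, and 0 members passed in western diet + CCl4 (Hsd3b5 -5.61, adjusted p = 0.0549). Under the block the lists had 0, 2 and 2 male-biased genes lower and 0, 0 and 1 lipid genes higher in western diet + CCl4, normal diet + CCl4 and western diet + oil, and 0 in each for the female-biased genes, receptor partners and IGF system. Deviations of same-numbered libraries from their group means had correlations of -0.279 to -0.0140. The libraries of a group of 2 deviate by equal and opposite amounts, and western diet + CCl4 has 1 library. These correlations therefore cannot decide whether the numbers pair the libraries. Number 3 occurs only in normal diet + oil, so the block term fits that library exactly. The block fit thus leaves normal diet + oil library 3 out in effect and is not independent of that alternative. Under the block small differences turned sign to 0.14 (Igfals, western diet + CCl4), 0.11 (Selenbp2, normal diet + CCl4), 0.67 (Socs2) and 0.012 (Stat5b) in western diet + oil, 0.22 (Igfals) against western diet + oil, 0.31 (Cish) and -0.14 (Bcl6) against normal diet + CCl4, and 0.032 (Igf1) and 0.058 (Igfals) in the interaction.

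No member that passed changed sign under another scaling. Among the others, median-of-ratios scaling gave -0.12 (Stat5b) and -0.22 (Igf1) in western diet + CCl4, -0.14 (Igf1) and -0.17 (Igfals) in normal diet + CCl4, 0.0050 (Hsd3b5) against normal diet + CCl4, and 0.27 (Ghr), 0.33 (Igf1), 0.15 (Igfals) and 0.066 (Socs2) in the interaction. Mup removal gave -0.060 (Stat5b) and -0.15 (Igf1) in western diet + CCl4, -0.0040 (Igfals) in normal diet + CCl4, and 0.046 (Ghr) and 0.10 (Igf1) in the interaction. A common sum gave 0.0034 (Stat5b) and 0.0049 (Igfals), and a pseudocount of 0.1 gave 0.60 (Socs2), in western diet + oil. With 1 library left out the ranges that crossed 0 were, in western diet + CCl4, -0.031 to 0.17 (Stat5b), -0.043 to 0.085 (Igf1) and -0.60 to 0.99 (Socs2), in normal diet + CCl4, -0.058 to 0.43 (Igf1), -0.43 to 0.71 (Igfals), -0.31 to 1.28 (Socs2) and -1.43 to 0.11 (Selenbp2), and in western diet + oil, -0.31 to 0.14 (Stat5b) and -0.92 to 0.67 (Socs2). Against western diet + oil they were -0.066 to 0.39 (Stat5b), -0.13 to 0.0050 (Igfals) and -0.084 to 0.72 (Socs2), and in the interaction -0.34 to 0.15 (Ghr), -0.28 to 0.21 (Igf1), -0.77 to 0.36 (Igfals), -0.96 to 0.63 (Socs2) and -0.19 to 1.24 (Cish). Against normal diet + CCl4 they were -0.42 to 0.067 (Igf1), -0.86 to 0.27 (Igfals), -0.68 to 0.11 (Socs2), -0.79 to 0.65 (Cish), -0.22 to 0.34 (Bcl6), -0.27 to 0.16 (Hsd3b5), -0.035 to 0.73 (Elovl3) and -0.89 to 0.32 (Selenbp2).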
